A study of Homo sapiens with 10 samples.

Results

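Expression of 10 genes of the transforming growth factor-beta (TGF-beta) and bone morphogenetic protein (BMP) pathway was followed through 10 melanoma libraries. They were picked by gene symbol out of the 57955 genes measured, because SMAD6 was known to be higher in every resistant line, and all 10 genes passed the filter on low counts that left 17288 genes. The ratios of resistant to sensitive libraries therefore chose the genes, and they are described below without a test. The genes are the ligand genes TGFB2 and INHBA, the decoy receptor gene BAMBI, the signal transducer gene SMAD3, the inhibitory genes SMAD6 and SMAD7, and the target genes ID1, ID2, ID3 and TGFBI.

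The ligands of this family bind pairs of serine/threonine kinase receptors, which phosphorylate SMAD proteins. SMAD2 and SMAD3 carry the signal of TGF-beta and activin, SMAD1, SMAD5 and SMAD9 that of BMPs, and both groups enter the nucleus with SMAD4. SMAD6 and SMAD7 are themselves switched on by the pathway and close a negative feedback loop, and in melanoma the pathway is known for its part in the loss of pigment cell features and in invasion.

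The libraries came from the BRAF-mutant lines WM983A, WM278 and WM902B, of primary tumour origin, and WM983B and WM1617, of metastatic origin, and from the line made resistant to the BRAF inhibitor encorafenib and the MEK inhibitor binimetinib out of each (E+BRes). For this the drug pair was stepped up from 1 nM to 200 nM within 3 to 5 months, and 200 nM stayed in the medium, so that acquired resistance and the presence of the drugs cannot be told apart. Each line gave 1 library per state, WM983A and WM983B came from the same patient, as did WM278 and WM1617, and the 5 lines served as replicates. Totals were 13693922 to 18033247 counts per library. A floor of 3 counts was set for detection, which equals 0.166 to 0.219 CPM (reads of a gene scaled to a fixed library total).

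One resistant library stood apart. Across the 17288 genes, the log2 levels of resistant WM983A had a Pearson's r of 0.793 with sensitive WM983A and of 0.818 with sensitive WM902B, whereas each of the other resistant libraries correlated best with its own sensitive line (r of 0.872 to 0.977). The summed level of 7 melanocyte lineage markers was 2909, 1802, 336, 4459 and 2729 CPM in sensitive WM983A, WM983B, WM278, WM1617 and WM902B, and 86.1, 132, 300, 4325 and 232 CPM in the resistant libraries in the same order. It was thus lower in every resistant library, at least 10 times lower in WM983A, WM983B and WM902B and by much less in WM278 and WM1617. Not every marker followed the sum. In WM278 the sum was mostly SOX10 (319 CPM sensitive, 274 resistant). PMEL and MLANA were also lower there, and MITF, TYR, DCT and TYRP1 higher, TYR barely. MLANA was higher in resistant WM983B (0.902 to 3.96 CPM), DCT in WM1617 (708 to 1001) and TYRP1 in WM902B (0.735 to 1.49). The other markers were lower in those lines. The summed level of 3 fibroblast-like markers was 55.9, 78.6, 1.74, 5.93 and 37.2 CPM in the sensitive and 1.79, 142, 13.4, 15.2 and 350 CPM in the resistant libraries, lower in resistant WM983A and higher in the other 4. Its genes did not move alike. PDGFRB had 1.79 and 9.62 CPM in sensitive and 83.3 and 303 CPM in resistant WM983B and WM902B, but 3.47 against 1.33 CPM in WM983A. LUM had 52.4 against 0.384 CPM in WM983A, 76.8 against 57.6 CPM in WM983B and 27.5 against 28.5 CPM in WM902B. COL3A1 was at 0 counts in 4 of the 5 sensitive libraries and reached 18.7 CPM in resistant WM902B. The keratinocyte and endothelial markers (3 genes each) summed to at most 2.71 CPM, and the 3 leukocyte markers to at most 0.948 CPM, except for 5.08 CPM of CD14 in resistant WM983B. Whether these shifts have a part in the values below was not tested, and fewer cells of a type and less RNA per cell cannot be told apart in bulk libraries.

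Levels below are normalised counts (reads per gene scaled to a common library size with edgeR's TMM method) in WM983A, WM983B, WM278, WM1617 and WM902B, in that order unless said otherwise. Changes within a line are resistant over sensitive, in log2, after 1 was added to both counts, and intervals on them are 95% intervals that cover counting error only.

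The inhibitory SMAD gene SMAD6 was the one member whose levels did not overlap between the groups. SMAD6 (ENSG00000137834, GRCh38 chr15:66702236-66782849, plus strand, protein-coding) encodes a protein that blocks chiefly BMP receptor signals. SMAD6 had 317, 284, 141, 465 and 276 normalised counts in the sensitive libraries and 967, 639, 907, 707 and 1261 in the resistant ones. The lowest resistant library, WM983B, lay above the highest sensitive one, WM1617, a separation that 0.44% of the 17288 genes had in this direction. The log2 ratio of SMAD6 was 1.60, 1.17, 2.67, 0.60 and 2.19, with a mean of 1.65 ± 0.82 (SD, n = 5). It was smallest in WM1617 (0.60, interval 0.436 to 0.774), the line with the highest sensitive level, and largest in WM278, the line with the lowest. Because the sensitive level is the denominator of the ratio, such an order is partly built in, and nothing is read from it.

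SMAD7 (ENSG00000101665, GRCh38 chr18:48919853-48950965, minus strand, protein-coding) encodes the second inhibitory SMAD, which acts on TGF-beta and activin as well as BMP receptors. Its normalised counts were 152, 117, 239, 171 and 270 in the sensitive and 430, 617, 235, 333 and 805 in the resistant libraries. SMAD7 was higher in 4 lines, with log2 ratios of 1.49 in WM983A, 2.39 in WM983B, 0.96 in WM1617 and 1.57 in WM902B. In WM278 it stood at nearly the same level in both libraries (-0.03, interval -0.281 to 0.229), although that line had the largest ratio of SMAD6. The groups overlapped through resistant WM278, and the mean ratio was 1.28 ± 0.89 (SD, n = 5).

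SMAD3 (ENSG00000166949, GRCh38 chr15:67063763-67195173, plus strand, protein-coding) encodes the transducer of TGF-beta and activin signals. Its normalised counts were 3334, 2225, 7589, 767 and 1348 in the sensitive libraries and 3651, 7202, 13539, 1460 and 4143 in the resistant ones. WM278 was the highest and WM1617 the lowest line in both states, and the groups overlapped. Within lines SMAD3 was higher in each of the 5 resistant libraries, with log2 ratios of 0.13, 1.69, 0.84, 0.93 and 1.62 (mean 1.04 ± 0.64, SD, n = 5). The ratio in WM983A was the smallest of the 5, at an interval of 0.0607 to 0.202.

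SMAD6, SMAD3 and ID3 were the 3 members that were higher in the resistant library of every line, and 5.74% of all genes tested were. The bases before their starts and before that of SMAD7 are shown because these genes moved alike in most lines while SMAD7 parted from SMAD6 in WM278. They are the 250 bases upstream of a RefSeq transcript start on GRCh38.p14, written 5′ to 3′ on the strand of the gene. The run of SMAD6 lies at chr15:66701986-66702235 (plus strand), SMAD7 at chr18:48950966-48951215 (minus), SMAD3 at chr15:67065352-67065601 (plus) and ID3 at chr1:23559502-23559751 (minus), and of the several starts of SMAD7 and SMAD3 the most upstream was taken. Capitals mark matches, on either strand, to the palindromic SMAD-binding element GTCTAGAC, the SMAD box CAGAC, the GC-rich element GGCGCC bound by BMP-regulated SMADs, and the AP-1 site TGANTCA.
SMAD6: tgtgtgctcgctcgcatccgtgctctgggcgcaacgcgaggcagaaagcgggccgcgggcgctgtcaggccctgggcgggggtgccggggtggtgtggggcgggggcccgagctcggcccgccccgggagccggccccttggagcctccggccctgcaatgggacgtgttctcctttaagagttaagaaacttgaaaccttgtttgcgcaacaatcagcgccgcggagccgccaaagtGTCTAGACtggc
SMAD7: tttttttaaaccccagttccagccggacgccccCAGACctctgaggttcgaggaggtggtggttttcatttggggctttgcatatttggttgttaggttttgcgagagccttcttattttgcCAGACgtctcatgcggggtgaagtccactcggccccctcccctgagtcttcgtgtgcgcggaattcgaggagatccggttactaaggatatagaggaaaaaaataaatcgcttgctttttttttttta
SMAD3: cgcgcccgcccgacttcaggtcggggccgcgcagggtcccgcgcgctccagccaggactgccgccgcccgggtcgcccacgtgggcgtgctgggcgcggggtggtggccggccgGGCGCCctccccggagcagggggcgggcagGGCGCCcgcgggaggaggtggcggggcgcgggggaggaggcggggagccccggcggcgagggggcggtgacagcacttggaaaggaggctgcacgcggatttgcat
ID3: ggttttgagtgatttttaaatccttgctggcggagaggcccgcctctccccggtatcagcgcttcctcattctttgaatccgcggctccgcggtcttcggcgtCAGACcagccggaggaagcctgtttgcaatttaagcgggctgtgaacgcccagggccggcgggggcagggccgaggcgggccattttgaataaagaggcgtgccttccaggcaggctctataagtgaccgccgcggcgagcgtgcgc
In SMAD6 the run held 1 GTCTAGAC, which began 12 bases before the start, and no other match. That element was in 64 of the 35116 promoter windows of this length in the table (0.182%). SMAD7 held 2 CAGAC and ID3 1, a motif found in 38.0% of windows, and SMAD3 held 2 GGCGCC, found in 16.4%. The site TGANTCA, found in 6.57% of windows, was in none of these 4 runs. Other starts of SMAD3 and SMAD7 differed. For SMAD3, chr15:67125492-67125741 held 1 TGANTCA, and chr15:67137771-67138020 and chr15:67166281-67166530 held 1 and 3 CAGAC. For SMAD7, chr18:48949334-48949583 held 1 CAGAC. The windows at chr15:67098429-67098678 and chr18:48942808-48943057 held none of the 4 motifs. Of the other members, BAMBI held 3 GGCGCC and 2 CAGAC, TGFBI 1 GGCGCC and TGFB2 2 CAGAC, and ID1, ID2 and INHBA had none of the 4 motifs in their windows. These matches describe letters and do not show binding.

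**Figure D1:**
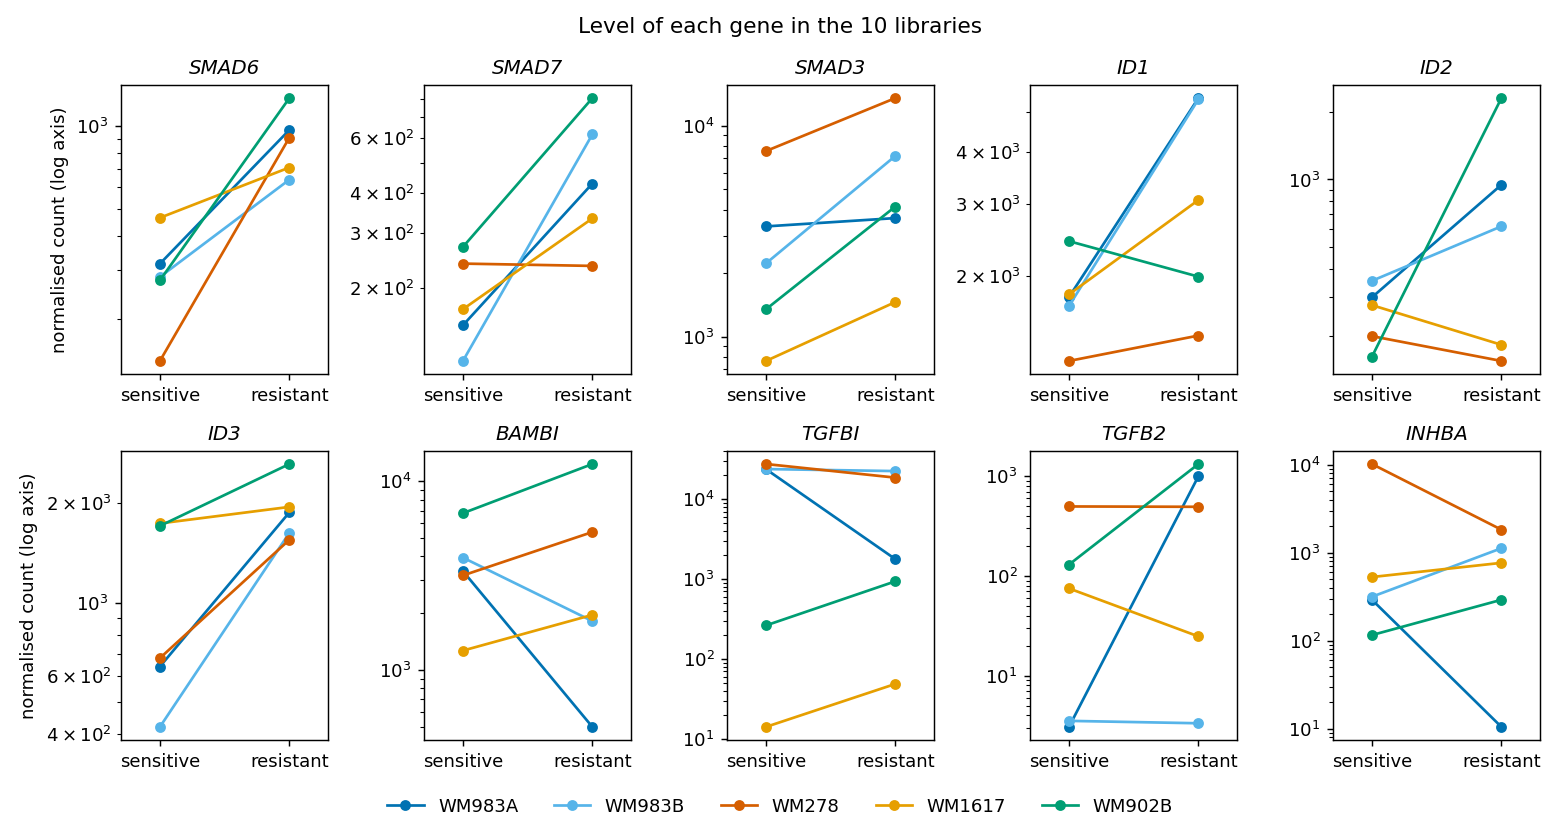
Normalised counts of the 10 genes (y axis, log scale, a separate range in each panel) in the sensitive and the resistant library of each line, joined by a line in the colour of the cell line. SMAD6 is the panel in which all 5 resistant points lie above all 5 sensitive ones, while TGFBI, TGFB2 and INHBA spread widely between lines in both states.

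The ID genes encode inhibitors of basic helix-loop-helix transcription factors and are direct targets of BMP signals. ID1 (ENSG00000125968, GRCh38 chr20:31605283-31606515, plus strand, protein-coding) had 1779, 1693, 1245, 1806 and 2433 normalised counts in the sensitive and 5415, 5378, 1435, 3062 and 1995 in the resistant libraries. The levels in both resistant lines of the WM983 patient stood apart from the other resistant libraries, and those in WM278 and WM902B fell within the sensitive range. The log2 ratios of ID1 were 1.61, 1.67, 0.21, 0.76 and -0.29, the last with an interval of -0.372 to -0.200 (mean 0.79 ± 0.86, SD, n = 5).

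ID2 (ENSG00000115738, GRCh38 chr2:8678845-8684461, plus strand, protein-coding) had 298, 353, 200, 275 and 162 normalised counts in the sensitive and 947, 618, 155, 183 and 2307 in the resistant libraries. The lines split, with ID2 higher in resistant WM983A, WM983B and WM902B and lower in WM278 and WM1617. The summed melanocyte markers were lower in all 5 resistant libraries, and at least 10 times lower in the 3 lines where ID2 was higher, and their part in the ratio was not tested. Its log2 ratios were 1.67, 0.81, -0.36, -0.58 and 3.83, so that WM902B, where ID1 was lower, had the largest ratio of any ID gene (mean 1.07 ± 1.79, SD, n = 5). The antisense gene ID2-AS1, which shares 6.55% of the exon bases of ID2, held 2.46 to 17.5 counts.

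ID3 (ENSG00000117318, GRCh38 chr1:23557926-23559501, minus strand, protein-coding) had 641, 421, 680, 1738 and 1708 normalised counts in the sensitive and 1877, 1627, 1551, 1950 and 2629 in the resistant libraries. The resistant libraries spread less (SD of log2 levels 0.298) than the sensitive ones (0.915). The lines with the lowest sensitive levels had the largest log2 ratios, at 1.55 in WM983A, 1.95 in WM983B and 1.19 in WM278. In WM1617 and WM902B, which were already high, the ratios were 0.17 (interval 0.0737 to 0.259) and 0.62. As with SMAD6, the sensitive level is the denominator of the ratio, and nothing is read from this order. The mean over lines was 1.10 ± 0.71 (SD, n = 5).

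TGFBI (ENSG00000120708, GRCh38 chr5:136028988-136063818, plus strand, protein-coding) encodes a secreted matrix protein named for its induction by TGF-beta. Its normalised counts were 23848, 23902, 27635, 14.1 and 263 in the sensitive and 1778, 22547, 18673, 48.7 and 939 in the resistant libraries. TGFBI was thus abundant in 3 of the sensitive lines and very low in WM1617 and WM902B. The log2 ratios were -3.74, -0.08, -0.57, 1.72 and 1.83, negative in the 3 abundant lines and positive in the 2 low ones. Here too the sensitive level is the denominator, and nothing is read from the split. Over the 5 lines the mean was -0.17 ± 2.27 (SD, n = 5), and 0.73 ± 1.23 (n = 4) without WM983A, the line whose resistant library stood apart.

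BAMBI (ENSG00000095739, GRCh38 chr10:28677510-28682932, plus strand, protein-coding) encodes a membrane protein that resembles a type I receptor but has no kinase domain. It had 3343, 3941, 3171, 1268 and 6775 normalised counts in the sensitive and 500, 1817, 5383, 1960 and 12338 in the resistant libraries. BAMBI was lower in both resistant lines from the WM983 patient, by log2 ratios of -2.74 in WM983A and -1.12 in WM983B. It was higher in the other 3 lines, by 0.76 in WM278, 0.63 in WM1617 and 0.86 in WM902B. The mean was -0.32 ± 1.58 (SD, n = 5) with all lines and 0.28 ± 0.94 (n = 4) without WM983A.

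TGFB2 (ENSG00000092969, GRCh38 chr1:218345336-218444619, plus strand, protein-coding) encodes one of the TGF-beta ligands. Its normalised counts were 3.07, 3.53, 498, 75.1 and 130 in the sensitive and 1000, 3.34, 494, 24.8 and 1326 in the resistant libraries. TGFB2 was near the limit of detection in both WM983B libraries and in sensitive WM983A, and resistant WM983A had one of the highest levels. The log2 ratio was 7.94 in WM983A (interval 6.32 to 9.56, from 3 counts in the sensitive library) and 3.34 in WM902B, and -1.56 in WM1617. In WM983B and WM278 it was -0.06 (interval -2.20 to 2.08) and -0.01. The mean was 1.93 ± 3.81 (SD, n = 5), and 0.43 ± 2.07 (n = 4) without WM983A. TGFB2-OT1, a non-coding gene on the same strand that shares 22.7% of the exon bases of TGFB2, held 0.5 to 216.5 counts and was highest in the same 2 resistant libraries, WM902B and WM983A, so reads may be split between them. TGFB2-AS1, on the other strand, shares 11.6% and held at most 18.6 counts.

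INHBA (ENSG00000122641, GRCh38 chr7:41667168-41705834, minus strand, protein-coding) encodes the beta A subunit of activin A. It had 292, 316, 10168, 529 and 116 normalised counts in the sensitive and 10.5, 1124, 1825, 767 and 292 in the resistant libraries. WM278 was the highest line in both states, and resistant WM983A held by far the lowest level. The log2 ratios were -4.67 in WM983A and -2.48 in WM278, against 1.83 in WM983B, 0.54 in WM1617 and 1.32 in WM902B. Both ligands thus moved in opposite directions in WM983A, where TGFB2 was higher and INHBA lower. The mean of INHBA was -0.69 ± 2.78 (SD, n = 5), and 0.30 ± 1.93 (n = 4) without WM983A.

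**Figure D2:**
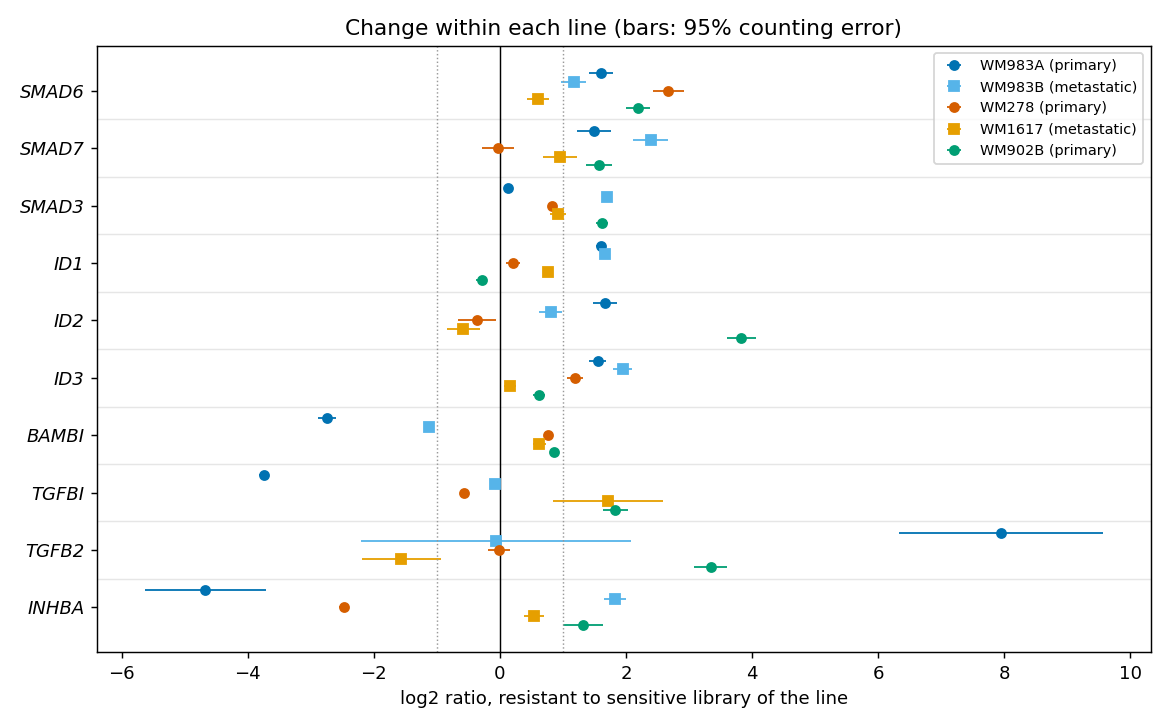
Log2 ratio of resistant to sensitive (x axis) for each gene (rows) and line (colours, circles for lines of primary and squares for lines of metastatic origin), with bars for the 95% counting error and dotted lines at a 2-fold difference. SMAD6, SMAD3 and ID3 lie right of 0 in every line, and the ratios of TGFB2 and INHBA spread from -4.67 to 7.94.

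Counted by line, the members differed by at least 2-fold between the states in 9 of 10 cases in WM983A (36.3% of all genes tested did so), in 7 in WM983B (27.4%), in 3 in WM278 (19%), in 2 in WM1617 (6.63%) and in 7 in WM902B (27.4%). The 3 in WM278 were SMAD6 and ID3, which were higher, and INHBA, which was lower. In WM1617 they were TGFBI, higher from 14.1 normalised counts, and TGFB2, lower. All 7 in WM902B were higher, whereas in WM983A 6 were higher and 3 (BAMBI, TGFBI and INHBA) lower. The genes were chosen on these ratios, so nothing is read from the difference between their counts and those of all genes.

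To compare levels between genes, CPM were divided by exon length in kilobases (RPKM). On this scale ID1 (66.4 to 130) and BAMBI (39.0 to 208) were high in all 5 sensitive libraries, ID3 had 18.5 to 76.4, and SMAD3 5.04 to 49.9. SMAD6 (1.09 to 3.57), SMAD7 (1.95 to 4.51) and ID2 (4.80 to 10.5) were low in every sensitive line. TGFBI had the widest range, with 203, 204 and 236 RPKM in WM983A, WM983B and WM278 and 0.120 and 2.24 in WM1617 and WM902B. In the resistant libraries SMAD6 reached 4.92 to 9.70 RPKM and SMAD7 3.91 to 13.4, ranges that overlap each other, and with 1 library per line their order within a line has no replicate error.

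The lines also differed among themselves before any drug selection. The levels of both states enter the ratios that chose the members. Nothing is therefore read from the difference between the counts of members below and the shares of all genes. Sensitive WM983A and WM983B, of the same patient, had 0 of the 10 members at least 2-fold apart (11.6% of the genes tested were), whereas sensitive WM278 and WM1617, also of the same patient, had 7 apart (35.9% of the genes tested). SMAD6 was 141 in WM278 against 465 in WM1617, TGFBI 27635 against 14.1 and INHBA 10168 against 529. After selection 4 members were at least 2-fold apart between WM983A and WM983B (37.5% of the genes tested) and 6 between WM278 and WM1617 (37.7%). TGFB2 differed most in the former pair, with 1000 in resistant WM983A against 3.34 in resistant WM983B.

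Whether origin of the line mattered was tested in each state separately, 3 lines of primary against 2 of metastatic origin, with edgeR's quasi-likelihood test (two-sided, Benjamini-Hochberg adjustment). Because 2 patients gave a line of each origin, the groups share patients, which the test does not take into account. In the sensitive libraries 0 of the 10 members passed an adjusted p of 0.05 in edgeR, 0 had an unadjusted p of at most 0.05 (1.74% of 18047 genes did), and 0 passed in DESeq2 (0.139% of the genes did). In the resistant libraries 0 passed with adjustment in edgeR, 1 had an unadjusted p of at most 0.05 (3.59% of 18820 genes), and the same gene, TGFB2, passed in DESeq2 (1.11% of the genes did). TGFB2 had 1000, 494 and 1326 normalised counts in resistant WM983A, WM278 and WM902B and 3.34 and 24.8 in resistant WM983B and WM1617, and the groups did not overlap. Within both patients the line of primary origin was the higher one, at 1000 against 3.34 and 494 against 24.8. Its log2 fold change of 6.02 (primary against metastatic) had an unadjusted p of 0.00191 and an adjusted p of 1.00 in edgeR, against an adjusted p of 2.04e-07 with DESeq2's Wald test. In the other edgeR settings its adjusted p was 0.603 to 1. In the sensitive libraries the corresponding value was 2.41 with an unadjusted p of 0.287 in edgeR, and the difference between the states was not tested. SMAD6 in the resistant libraries was also separated by origin (907 to 1261 in primary, 639 and 707 in metastatic lines, and 967 against 639 and 907 against 707 within patients), at a log2 fold change of 0.62 and an unadjusted p of 0.145 in edgeR. The other members overlapped between origins in both states. The share of all genes separated by origin was not computed, and the resistant levels of SMAD6 also entered the choice of members. Nothing is therefore read from the separation of SMAD6 or TGFB2.

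How the members vary together was described by Pearson's r of log2 CPM over the 10 libraries, which hold both states of each line and are not independent. The highest values were 0.80 for SMAD3 with TGFBI, 0.75 for SMAD7 with ID3, 0.75 for SMAD6 with ID3, 0.67 for SMAD7 with ID2 and 0.64 for SMAD6 with SMAD7. The difference between the states, which chose the members, enters any r over both states. In the 5 sensitive libraries alone r was 0.87, 0.62, 0.42, -0.99 and -0.43 for these pairs in the same order. In the 5 resistant ones it was 0.94, 0.65, 0.69, 0.90 and 0.29. SMAD3 and TGFBI differed between the states in the same direction in only 2 of the 5 lines, whereas SMAD6 and ID3 did so in 5 and SMAD6 and SMAD7 in 4. Among 16508 genes with a mean of at least 1 CPM, those most like SMAD6 were POLI (r 0.947), CTC-425O23.5 (0.936), ZNF34 (0.931), FAM179B (0.928) and ZNF397 (0.919). For ID1 they included SEMA4B (0.938), SNCG (0.923), LRRC20 (0.907) and TYSND1 (0.901). For TGFBI they were ZFAND2A (0.973), the integrin subunit gene ITGAV (0.969), HOXC8 (0.969), the chemokine gene CXCL1 (0.968) and MPPE1 (0.967).

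The other genes of the pathway, 101 from 6 lists of which 73 passed the filter, were tested for resistant against sensitive libraries. At a fold change of at least 2 and an unadjusted p no higher than 0.05 (edgeR), 9 of the 73 were called (12.3%), 8 higher and 1 lower, against 4.41% of all 17288 genes. The lists were chosen with earlier results of these data known, so nothing is read from the difference between these shares. With adjustment 0 were called in edgeR, 11 reached an unadjusted p of 0.05 or less whatever their fold change (7.14% of all genes), and DESeq2 called 3 with adjustment (0.642% of all genes), JUNB and LTBP4 among them. With cell line as a replicate block 10 were called without adjustment (6 higher, 4 lower, 5.54% of all genes), 6 of them among the 9, and 0 with adjustment. The block takes the shared line into account but not the patients that lines share, and the fit without the block takes neither into account. The calls below are those without adjustment. The number of calls was 5 without WM983B, where 422 of all 17431 genes tested were called. It was 16 without WM1617, where 1493 of all 17427 were, so the calls over all genes moved in the same direction.

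Of the 12 ligand genes tested, 1 was higher and 1 lower (median log2 fold change of the list -0.44, against 0.03 over all genes). With the block 0 ligand genes were higher and 2 lower. TGFB1, the most widely expressed TGF-beta ligand, had a log2 fold change of 1.53 (unadjusted p of 0.0127 in edgeR, and 0.0806 with the block) and BMP8B one of -2.50 (0.0417). TGFB1 was higher in WM983A, WM983B and WM902B, by log2 ratios of 3.28, 2.14 and 2.13, and not in WM278 or WM1617 (-0.0008 and -0.87). None of the 12 receptor genes and none of the 14 genes for other SMADs, corepressors and ubiquitin ligases was called (medians 0.04 and 0.06), and none was called with the block. SMAD4, the partner of all receptor-activated SMADs, had a log2 fold change of 0.09 and SMAD2 one of 0.25. SKI (-0.57) and NEDD4L (-0.81) had an unadjusted p of 0.0267 and 0.0178 in edgeR but were under the fold threshold. The receptor genes TGFBR1 and TGFBR3 were lower in the resistant library of all 5 lines, and 0 receptor genes were higher in all 5. Of all 17288 genes 921 were lower and 992 higher in all 5 lines.

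Among 12 extracellular antagonists and latency proteins 2 were higher, FSTL3, a binder of activin (1.53, unadjusted p of 0.0204 in edgeR), and LTBP4, which holds latent TGF-beta in the matrix (1.43, 0.00115). With the block 2 genes of this list were higher and 1 lower. Of 15 TGF-beta targets 4 were higher and 0 lower (list median 0.36), the same numbers as with the block. They included the collagen gene COL1A1 (6.11, unadjusted p of 0.00557 in edgeR), the actin-binding protein gene TAGLN (2.87, 0.00992) and the AP-1 subunit gene JUNB (1.74, 0.00174). COL1A1 had 18770 normalised counts in resistant WM902B, against 37.2 to 1353 in the other resistant libraries. Its log2 ratios were 2.83, 7.59, 3.84, -0.03 and 6.75. TAGLN had 870 in resistant WM278, against 36.7 to 111 in the other resistant libraries. Its log2 ratios were -0.08, 3.06, 4.51, 0.62 and 1.79. With the block both genes had a smaller log2 fold change (4.34 for COL1A1). Of 12 BMP targets 2 were higher (list median 0.40), JUNB, which is on both lists, and the netrin receptor gene UNC5B (2.76, unadjusted p of 0.0478 in edgeR, and 0.359 with the block). With the block 1 BMP target was higher and 1 lower. In each of the 5 lines JUNB was higher, with log2 ratios of 0.35 in WM1617 to 2.56 in WM983B. The melanocyte lineage markers, summed, were lower in all 5 resistant libraries, at least 10 times in 3 of them, and their part in these calls was not tested. The summed fibroblast-like markers were highest in resistant WM902B, at 350 CPM, and their part was not tested either.

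**Figure D3:**
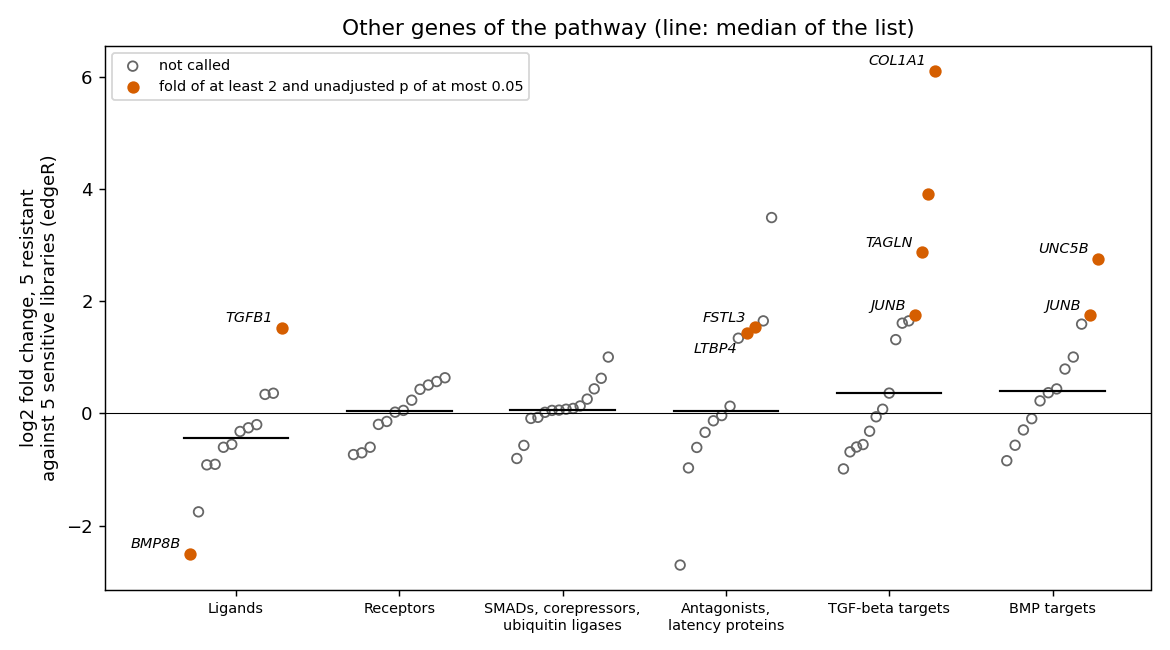
Log2 fold change of resistant against sensitive libraries (y axis, edgeR, 5 against 5) for the 73 tested genes of the 6 pathway lists (x axis), with filled points for the 9 genes called without adjustment (8 of them labelled), a bar at the median of each list, and JUNB, LTBP2, SKIL and SMAD9 drawn in both of their lists. The lists of receptors and of other SMAD genes hold no filled point. COL1A1 is highest at 6.11, with by far its highest level in resistant WM902B.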

How the data were processed

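Total RNA of 10 cell lines was sequenced after oligo-dT selection in single-end runs of 75 cycles. HISAT2 was the aligner and GRCh38 the build of the authors, who used StrandNGS for the further statistics. The counting tool, the annotation and the treatment of shared reads are not given in the sources used here. The raw values deposited are expected counts per Ensembl gene, which include fractions (24.1% of those above 0 were whole), and were rounded for the tests. The normalised values deposited are log2 ratios to the sensitive library of the line. They were used only to recover 455 raw values of sensitive WM983B that had been turned into dates, TGFB2 (3.5 counts) among them.

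Counts were filtered with filterByExpr, normalised by TMM and tested with edgeR 4.0.16 (glmQLFit, glmQLFTest), with DESeq2 1.42.0 as an alternative, in R 4.3.3. The tests were also run on simulated counts that held no differences between lines or patients, a check that does not extend to such differences. Ratios, lengths (GENCODE release 44) and motifs were computed in Python 3.11.15. The replicate block pairs both libraries of a line, since each resistant line was derived from the sensitive one. Deviations from the group means correlated within lines at r of -0.06 (WM983A), 0.54 (WM983B), 0.67 (WM278), 0.67 (WM1617) and 0.38 (WM902B).

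The members, pathway lists and tests were chosen with earlier results of these data known. Named are all members, genes overlapping their exons, the 5 genes most like SMAD6, ID1 and TGFBI, and up to 3 called genes per pathway list and direction with the smallest p. Of these, 1 gene like ID1 is not reported here. SMAD2, SMAD4, SKI, NEDD4L, TGFBR1, TGFBR3 and the genes in the closing section were chosen after their values were seen. Intervals and the floor of 3 counts cover counting error only. Alternatives were other size factors, no filter, the block, other added counts and leaving out each line.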

Additional observations from a re-analysis of the deposited data

How the results depend on the processing

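The 50 within-line ratios of the members were recomputed with 2 other scalings and 2 other added counts. Of 200 alternative values 189 moved by less than their counting error, and the sign changed only for SMAD7 and TGFB2 in WM278, both near 0. Another scaling moved a ratio by at most 0.104, and adding 10 counts moved TGFB2 in WM983A from 7.94 to 6.27, the largest move. The number of members higher in all lines was 3 or 4 over every alternative (4 with counts divided by library totals, and 3 to 4 with a line left out). The number of pathway genes called was 9, with 18 when no filter was applied and 5 to 16 with a line left out, and 10 with the replicate block. Over all genes the calls were 763 of 17288, and 2258 of 38285 without the filter. They were 419 to 1493 with a line left out and 957 with the block. For origin, edgeR called 0 genes in either state, and DESeq2 called 25 in the sensitive and 209 in the resistant libraries, and the cause was not tested. With 1 library per line and state no ratio has a replicate error, and at levels such as 3 counts of TGFB2 the depth limits the ratio.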

Other observations

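Several ligand genes of the family that the filter on low counts removed were abundant in 1 or 2 resistant libraries. INHBB, which encodes the beta B subunit of activin, had 6 normalised counts in sensitive and 3363 in resistant WM983A, the library in which INHBA was lowest, and at most 19.3 in the other sensitive libraries. In resistant WM902B it had 139. BMP5 had 473 and INHBE 454 normalised counts in resistant WM983B, against at most 4.85 and 28.9 in the other 9 libraries. BMP4 had 195 in resistant WM983A and 77.6 in resistant WM278, against at most 22.8 in the sensitive libraries. Among the antagonists, SOST, an inhibitor of BMP and WNT signals, had 1314 normalised counts in resistant WM902B and 0 in all 5 sensitive libraries, and GREM1, a BMP antagonist, had 224 in resistant WM983B and at most 6 elsewhere. Other removed genes were lower in resistant libraries. The ligand gene GDF7 went from 173 to 3.5 in WM983A and from 113 to 26.7 in WM983B, and the antagonist gene CHRDL1 from 300 to 44.6 in WM278. These genes were picked after their values were seen and each rests on 1 or 2 libraries, so the values have no replicate check.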
